A study of Mus musculus with 16 samples.

Results

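The metalloproteinase genes and the genes of their tissue inhibitors were examined in tumor RNA from mice with colorectal liver metastasis. All genes whose mouse symbol began with Mmp, Adam or Adamts followed by a digit, together with Timp1 to Timp4, were taken from the count tables, which gave 81 members of 21959 genes listed. They comprised 23 MMP genes, Mmp24os1 (a gene on the strand opposite Mmp24 that carries its name), 34 ADAM genes, 19 ADAMTS genes and 4 TIMP genes. Total RNA from liver metastases of 16 mice had been sequenced, 4 mice in each of 4 groups. All mice were male wild-type C57BL/6 animals, 6 weeks old at the start, that received MC38 cells, a mouse colon carcinoma line, by injection into one part of the divided spleen. The control group was given PBS. The SB525334 group received an inhibitor of the TGF-β type I receptor (ALK5) at 20 mg/kg by daily gavage, the KN046 group a bispecific antibody against PD-L1 and CTLA-4 at 10 mg/kg into the peritoneum, and the combination group both agents. All tumors thus came from 1 cell line in male mice of 1 strain, and the RNA was taken from bulk tumor tissue, in which fewer cells of a type and less RNA per cell cannot be told apart. The labels number the samples within a group without naming the animals. Each sample was read as 1 mouse, and if any shared an animal the p-values would reflect the spread between samples, which may be technical.

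Matrix metalloproteinases (MMPs) are zinc-dependent enzymes that are made as inactive precursors and cleave collagens, elastin, proteoglycans and many other proteins outside the cell. ADAM proteins are membrane-anchored relatives, several of which release growth factors, cytokines and receptors from the cell surface, whereas the secreted ADAMTS enzymes process procollagens and cleave proteoglycans and von Willebrand factor. TIMPs bind to the active site of these enzymes and block them. In liver metastases the enzymes come from tumor cells, fibroblasts, macrophages, neutrophils and the surrounding liver, and TGF-β is known to regulate several of the genes.

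Each library held between 18368994 and 23877131 counts. Of the 81 members, 48 passed the filter on low counts and were tested, which were 17 MMP genes, Mmp24os1, 14 ADAM genes, 13 ADAMTS genes and 3 TIMP genes. A further 21 had at least 1 count but at most 84 in all mice together, and 12 had 0 counts in every mouse, 10 of them ADAM genes and the others Mmp1a and Mmp20. Control mice 1 and 2, and control mice 3 and 4, resembled each other more than any other mice of a group. The median chi-square per gene between their libraries was 1.25 and 0.956, against at least 2.82 for the other 22 pairs, although 24.8% and 18.1% of genes still differed beyond the 95% limit of counting error. They were therefore kept as 4 samples, and calls that were lost when each pair was summed to 1 sample are named. Between a mouse of one pair and a mouse of the other, 64.4% to 65.5% of all genes compared differed beyond that limit. Of the 48 tested members, 30 were higher in both of control mice 1 and 2 than in both of control mice 3 and 4, and 8 were lower. The share of all genes with such an order was not counted, so this is not a trait shown for the members.

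Marker genes of other cell types moved with the groups. The summed level of 11 hepatocyte markers was 13786 to 16512 CPM (counts scaled to a common library size) in the control mice, 353 to 1835 with SB525334, 8840.2 to 17892 under KN046 and 18.8 to 21.3 with the combination. Neutrophil markers summed to 219 to 236 CPM in control, 8.32 to 18.2 with SB525334 and 17.1 to 27.8 with KN046. In the combination group 3 mice had 5.24 to 21.4 CPM, while combination mouse 4 had 281 CPM and also the highest B cell sum, 50.6 CPM against 1.97 to 16.4 in the others. Epithelial markers fell from 148 to 248 CPM to 36.6 to 50.6 with SB525334 and 6.44 to 16.1 with the combination. Fibroblast marker sums overlapped across the 4 groups, with 7663 to 8364 CPM in control and 6362 to 11734 in the combination, and macrophage markers were at 1693 to 1819.9 and 1669 to 2414 CPM. Single fibroblast markers differed in direction. Of the 9, 2 were lower and 0 higher in the combination than in control (all genes 9.74% and 1.37%), with log2 differences from -2.34 to 1.01. Against KN046, 1 was lower and 3 were higher (all genes 14.5% and 9.89%). Endothelial markers were at 174 and 173 CPM in control mice 1 and 2 but at 70.8 and 72 in mice 3 and 4. The part of these shifts in the member results was not tested.

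**Figure D1:**
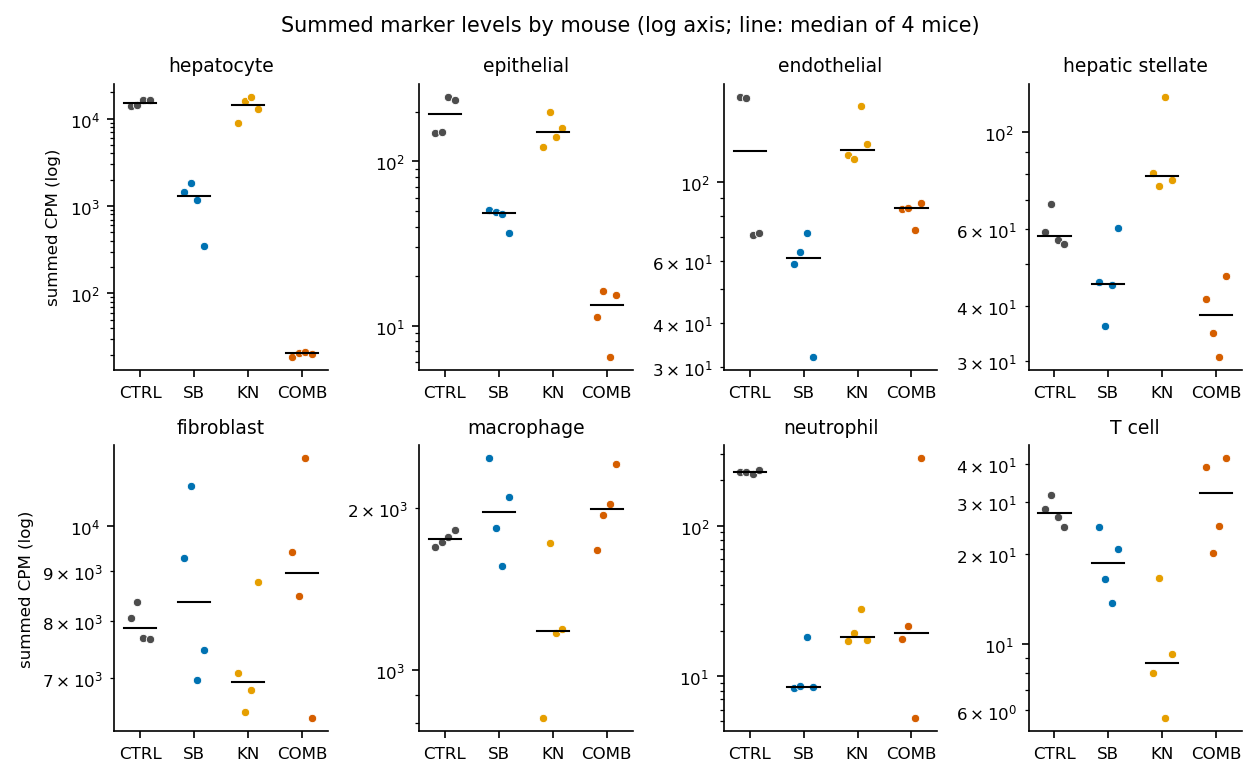
Summed CPM of marker genes for 8 cell types (y axis, log scale) in each of the 16 mice (points) by group (CTRL, control; SB, SB525334; KN, KN046; COMB, combination), with lines at the group medians. Hepatocyte markers lay at 13786 CPM or above in control and at 21.3 CPM or below in the combination, and combination mouse 4 stood apart for neutrophil markers at 281 CPM.

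Compared per kilobase of exon, the members covered a wide range of levels. Timp2 was the most abundant, at a mean of 349 CPM per kb over the 16 mice, followed by Mmp2, the gelatinase A gene, at 278, Mmp14, a membrane-type MMP that activates pro-MMP2 together with TIMP2, at 68.7, and Timp1 at 59.4. Adam9 (36.1 CPM per kb), Adam10 (23.7), Mmp24os1 (20.8), Timp3 (18.7), Mmp11 (17.7) and Adamts1 (17.1) made up the rest of the 10 highest. Mmp2 alone supplied 64.6 ± 4.09% of the summed MMP level in control (SD, n = 4) and 65.1 ± 2.61% in the combination, and Timp2 supplied 78.9 ± 1.59% and 81.2 ± 2.21% of the TIMP level.

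**Figure D2:**
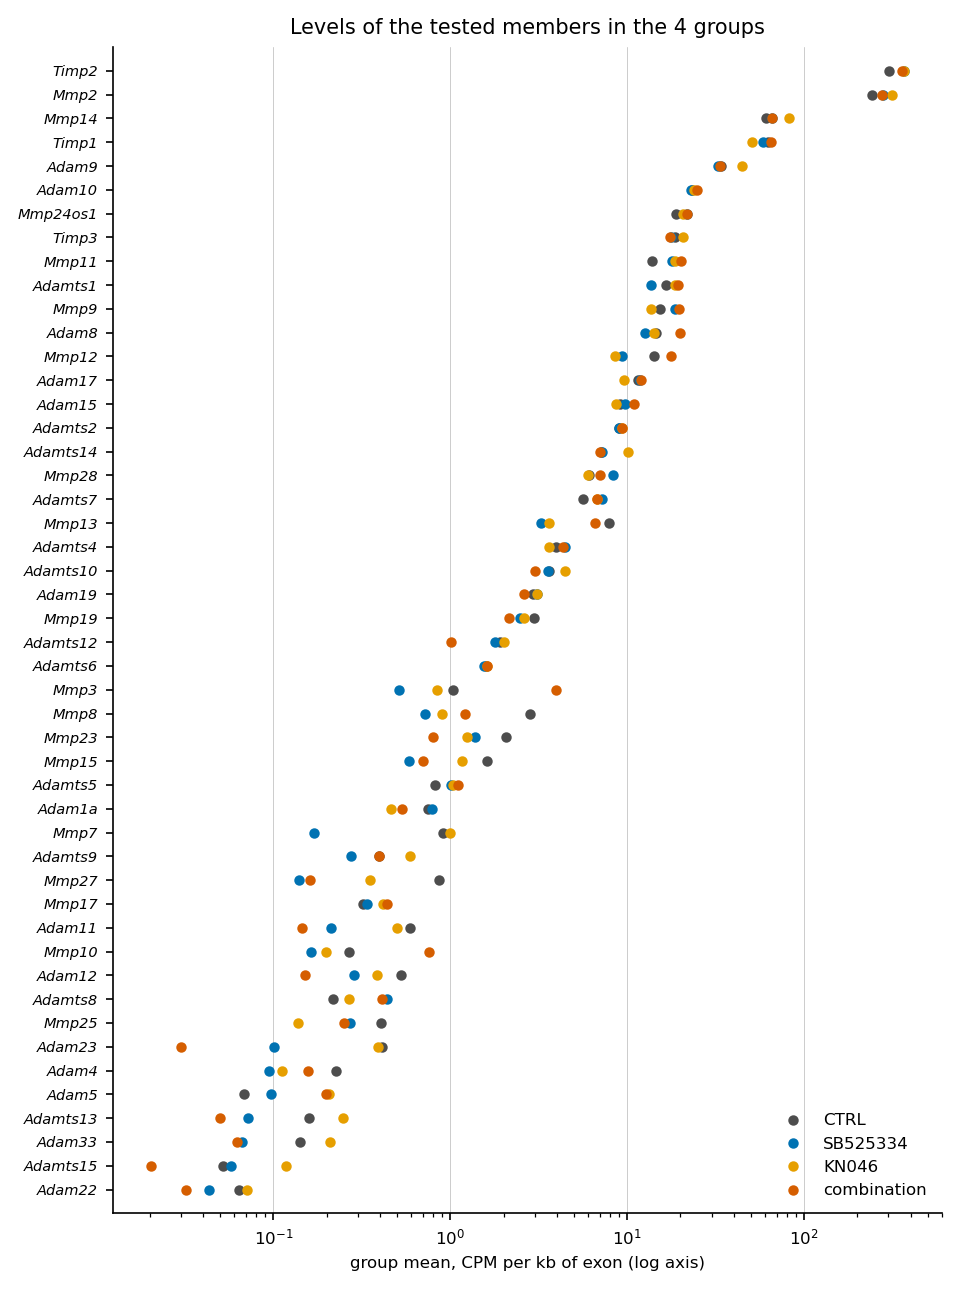
Group mean level of each of the 48 tested members in CPM per kb of exon (x axis, log scale), ordered by the mean over all mice, with 1 point per group. The groups lay close together for the abundant members at the top (Timp2, 348.8 CPM per kb over all mice) and spread for members of low level. Mmp7 has no combination point because its 4 combination mice had 0 counts.

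The MMP sum and the TIMP sum both had a higher mean in the combination than in control. The MMP sum was higher in every combination mouse than in every control mouse, and the TIMP sums overlapped. MMP genes together reached 373 ± 11.7 CPM per kb in control, 412 ± 31.4 with SB525334, 454 ± 112 under KN046 and 425 ± 27.7 with the combination. The TIMP sum was 384 ± 35.1, 445 ± 44.5, 438 ± 82.2 and 440.3 ± 30.7 CPM per kb in the same order. The control mice lay between 359 and 383 for MMP and the combination mice between 406 and 466, and both overlapped with the other 2 groups. Without Mmp2 the sums overlapped, at 122 to 142 in control and 138 to 158 in the combination. These sums were not tested. The ratio of the MMP sum to the TIMP sum was 0.976 ± 0.0612 in control and 0.972 ± 0.132 in the combination, with 0.927 ± 0.0382 for SB525334 and 1.03 ± 0.0976 for KN046.

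Each member was then compared between groups with edgeR's quasi-likelihood test, and p-values were adjusted over all 13968 genes tested (Benjamini-Hochberg, threshold 0.05). With SB525334, Mmp8, Mmp13, Mmp15, Mmp27, Adam11 and Adam23 were lower than in control and Mmp11 was higher. These were 6 and 1 of the 48 tested members, where 9.61% of all genes passed, 9.22% lower and 0.394% higher. The SB525334 count of 7 was 3 without control mouse 1 and 4 without control mouse 2 or SB525334 mouse 1. With KN046, Mmp8 was lower and Mmp11 higher, 1 member each way, where 4.0% of all genes passed, 2.4% lower and 1.6% higher. Without any 1 control mouse or KN046 mouse 1 or 3, edgeR called 0 members for KN046, with 8 to 13 at an unadjusted p under 0.05. The share of all genes past that unadjusted threshold was not counted, so these numbers are not a result about the members. Without KN046 mouse 2 edgeR called 7, and DESeq2 called 5 with all mice. The share of all genes called was not counted for DESeq2 or for a fit without 1 mouse, in this or any other comparison. Counts of members from those fits are therefore not a result about the members. With the combination, Mmp7, Mmp15, Mmp23, Mmp27, Adam11, Adam12, Adam23 and Adamts12 were lower and Mmp3 and Mmp11 higher, 8 and 2 members, where 11.1% of all genes passed, 9.74% lower and 1.37% higher. These 3 comparisons share the control mice.

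Against KN046 alone, 10 members were lower in the combination, most of them ADAM or ADAMTS genes, and 4 were higher, Mmp3, Mmp10, Mmp12 and Adam17. Here 24.4% of all genes passed, 14.5% lower and 9.89% higher. The count of 14 was 8 without KN046 mouse 3 and 9 without combination mouse 2. Against SB525334 alone, Mmp3 and Mmp10 were higher and Adamts12 lower, 2 and 1 members, where 3.57% of all genes passed, 0.544% higher and 3.03% lower. The interaction, which asks whether the difference made by SB525334 was the same with and without KN046, passed for Mmp3, Mmp8 and Mmp13, all in the higher direction, where 4.28% of all genes passed, 1.73% higher and 2.55% lower. It passed for 1 member without control mouse 2, SB525334 mouse 1 or 2 or combination mouse 4. The median log2 difference of the 48 members was -0.07 for SB525334, 0.04 for KN046 and 0.00262 for the combination, beside 0.000591, -0.03 and 0.01 for all genes. By the rule of an unadjusted p under 0.05 and a fold above 2, which the study used, the members past it were 9 (all genes 9.9%) for SB525334, 5 (all genes 4.08%) for KN046 and 12 (all genes 10.2%) for the combination against control, 10 (all genes 12.0%) for the combination against KN046, 5 (all genes 5.88%) against SB525334 and 8 (all genes 8.0%) for the interaction. In all, 20 of the 48 members passed in at least 1 comparison and 28 in none, where 28.4% of all genes passed in at least 1.

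**Figure D3:**
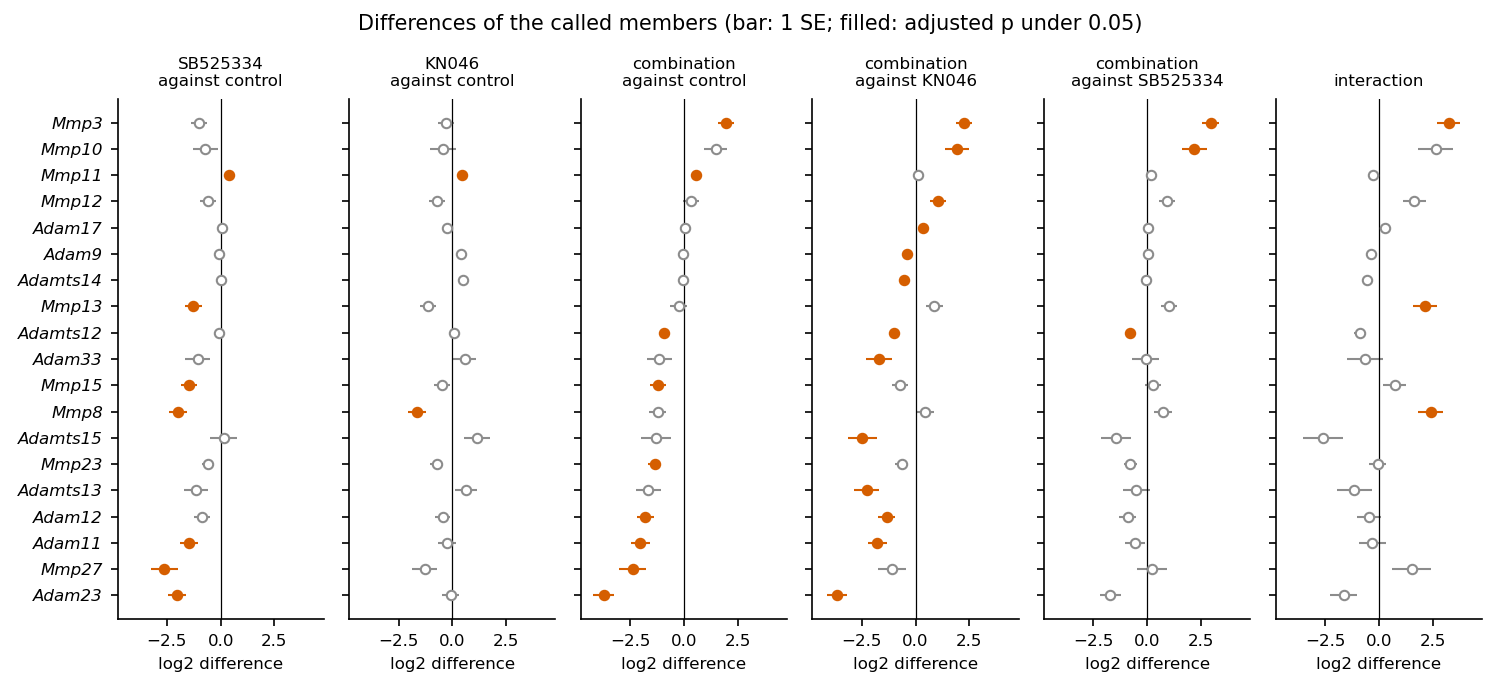
Log2 difference (x axis) with 1 SE for 19 members that passed the threshold in at least 1 comparison, in the 6 comparisons (panels). Filled points had an adjusted p under 0.05. Mmp3 lay to the right of 0 in the 3 combination comparisons and the interaction, and Adam23 to the left in each comparison with a called point. Mmp7 is left out because its fitted difference against 0 counts depends on the prior count.

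No TIMP gene passed the threshold in any of the 6 comparisons. Timp2 was at 1259, 1270.4, 1439 and 1425 CPM in the control group, 1696, 1779.6, 1318 and 1786 in the SB525334 group, 2205, 1365, 1465 and 1513 in the KN046 group and 1455, 1596, 1612 and 1719 in the combination group in mice 1 to 4. Its log2 difference to control was 0.29 ± 0.15 (adjusted p = 0.311) with SB525334, 0.28 ± 0.15 (adjusted p = 0.262) under KN046 and 0.24 ± 0.15 (adjusted p = 0.356) with the combination. Control mice 1 and 2 had the lowest values, and SB525334 mouse 3 and KN046 mouse 2 lay within the control range. Timp1, a secreted inhibitor of broad range, was at 102, 101, 143 and 146 CPM in the control group, 113, 92.7, 140.1 and 114 in the SB525334 group, 72, 106, 115 and 106 in the KN046 group and 98.8, 172, 119 and 122 in the combination group, and control mice 1 and 2 were again lower than control mice 3 and 4. Its difference was -0.10 ± 0.18 (adjusted p = 0.849), -0.30 ± 0.19 (adjusted p = 0.340) and 0.06 ± 0.18 (adjusted p = 0.889) for SB525334, KN046 and the combination against control. Timp3, the inhibitor that binds to the matrix and also blocks ADAM17, was at 156, 139, 166 and 149 CPM in the control group, 166, 80.0, 117 and 216 in the SB525334 group, 232, 132, 144 and 164 in the KN046 group and 185, 106, 108 and 172 in the combination group, with differences of -0.07 ± 0.26 (adjusted p = 0.925), 0.14 ± 0.26 (adjusted p = 0.780) and -0.10 ± 0.26 (adjusted p = 0.859). The SB525334 mice spread most, from mouse 2 to mouse 4. Timp4 had 15 counts in the 16 mice together and was not tested. Timp1, Timp3 and Timp4 lie within Syn1, Syn3 and Syn2 on the opposite strand, Timp2 encloses Cep295nl on the same strand, and the strand setting of the counting is not given in the sources used here.

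The gelatinase genes also did not pass in any comparison. Mmp2 was at 765, 804, 918 and 924 CPM in the control group, 1013, 979, 899.6 and 1081 in the SB525334 group, 1578, 737, 1071 and 1039 in the KN046 group and 1122, 933, 948 and 912 in the combination group, and its highest value was KN046 mouse 1. The differences to control were 0.22 ± 0.17 (adjusted p = 0.560), 0.38 ± 0.17 (adjusted p = 0.195) and 0.20 ± 0.17 (adjusted p = 0.536) for SB525334, KN046 and the combination. Without KN046 mouse 2 the KN046 difference was 0.54 (adjusted p = 0.0225). Mmp9, gelatinase B, which macrophages and neutrophils store or secrete, was at 52.8, 55.9, 56.7 and 61.4 CPM in the control group, 66.9, 89.0, 61.3 and 60.5 in the SB525334 group, 35.6, 31.2, 47.8 and 86.6 in the KN046 group and 65.7, 88.1, 86.5 and 49.8 in the combination group. The KN046 mice covered the widest range and the differences were 0.29 ± 0.25 (adjusted p = 0.619), -0.17 ± 0.25 (adjusted p = 0.715) and 0.35 ± 0.25 (adjusted p = 0.446).

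Among the membrane-type MMP genes, Mmp14 was at 387, 387, 369 and 362 CPM in the control group, 392, 409, 365 and 461 in the SB525334 group, 668, 410.4, 489.9 and 449 in the KN046 group and 465, 392, 403 and 372 in the combination group. All 4 KN046 mice lay above every control mouse, but the KN046 difference of 0.42 ± 0.13 (adjusted p = 0.0744) did not pass, whereas DESeq2 gave an adjusted p of 0.0245 and leaving out KN046 mouse 2 gave 0.0163. SB525334 and the combination differed from control by 0.11 ± 0.13 (adjusted p = 0.741) and 0.12 ± 0.13 (adjusted p = 0.649). Mmp15 encodes another transmembrane MMP and was at 11.8, 11.3, 5.53 and 6.22 CPM in the control group, 3.44, 4.10, 3.61 and 1.51 in the SB525334 group, 4.0, 11.6, 4.19 and 5.25 in the KN046 group and 2.72, 4.75, 3.77 and 3.96 in the combination group. All SB525334 and combination mice lay below all control mice, while the KN046 mice overlapped with them. SB525334 lowered Mmp15 (log2 difference -1.46 ± 0.38, 2.75-fold lower, adjusted p = 0.0148) and so did the combination (log2 difference -1.20 ± 0.37, 2.3-fold lower, adjusted p = 0.0464). With the control pairs summed the adjusted p was 0.0590 and 0.149. Control mice 1 and 2 were well above control mice 3 and 4. The combination call was also lost with upper-quartile scaling (adjusted p = 0.0526) and a mean CPM of at least 1 (adjusted p = 0.0534). The SB525334 call was also lost without control mouse 1 or 2 or SB525334 mouse 4 (adjusted p up to 0.0633), and the combination call without control mouse 1 or 2 or any 1 of the 4 combination mice (up to 0.165). Hepatocyte and epithelial marker sums moved in the same direction in those groups, and their part was not tested.

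Mmp16, a membrane-type MMP gene of low level, was not tested and is named here after its counts were seen. It had 9, 3, 5 and 14 counts in the combination mice, 1 count in control mouse 1 and 0 in the other 11 mice. Per total count the ratio of combination to control was 33.2, with a 95% interval of 5.53 to 1351 that covers counting error only. Against a floor of 3 counts per library its combination mean was at least 3.04-fold higher than in SB525334 and at least 2.48-fold higher than in KN046.

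A run of 10 MMP genes lies on chromosome 9 at chr9:7272514-7699587 (GRCm39), in a span of 427 kb with 0 other coding genes, in the order Mmp13, Mmp12, Mmp1b, Mmp3, Mmp1a, Mmp10, Mmp8, Mmp27, Mmp20 and Mmp7. Mmp1b lies on the minus strand and the other 9 genes on the plus strand. All 7 tested members of this run passed in at least 1 comparison, as did Mmp11, Mmp15 and Mmp23 among the other 10 tested MMP genes, where 28.4% of all genes passed in at least 1. Promoters of such genes are known for a site of the AP-1 transcription factor close to the start. The letters TGANTCA, which read the same on both strands, were found in the 300 bases from -250 to +50 of 8 of the 10 cluster promoters, 3 of the 13 other MMP promoters, 9 of 34 ADAM, 1 of 19 ADAMTS and 0 of 4 TIMP promoters, against 7.16% of 21579 coding genes. The 100 bases before the annotated start of the 7 tested genes are shown because their levels are compared next, with each match in capitals (GRCm39 and GENCODE M39 canonical start, plus strand, at chr9:7272414-7272513, chr9:7347274-7347373, chr9:7445722-7445821, chr9:7502253-7502352, chr9:7558357-7558456, chr9:7571297-7571396 and chr9:7691991-7692090 in order).
Mmp13: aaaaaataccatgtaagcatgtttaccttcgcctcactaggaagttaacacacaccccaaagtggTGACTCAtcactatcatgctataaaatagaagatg
Mmp12: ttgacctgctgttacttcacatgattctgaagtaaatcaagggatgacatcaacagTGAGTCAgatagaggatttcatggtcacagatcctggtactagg
Mmp3: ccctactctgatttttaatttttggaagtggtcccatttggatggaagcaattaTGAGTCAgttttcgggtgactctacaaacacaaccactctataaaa
Mmp10: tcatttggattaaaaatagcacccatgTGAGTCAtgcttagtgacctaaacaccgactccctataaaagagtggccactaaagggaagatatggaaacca
Mmp8: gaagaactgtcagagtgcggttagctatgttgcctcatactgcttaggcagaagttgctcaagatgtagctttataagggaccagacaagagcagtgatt
Mmp27: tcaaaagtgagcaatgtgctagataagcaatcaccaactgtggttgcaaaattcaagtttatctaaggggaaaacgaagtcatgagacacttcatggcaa
Mmp7: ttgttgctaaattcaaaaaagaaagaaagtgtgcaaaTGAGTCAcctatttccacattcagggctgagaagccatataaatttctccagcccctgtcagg
The first base of the match was at -35 in Mmp13, -44 in Mmp12, -46 in Mmp3, -63 in Mmp7 and -73 in Mmp10, and Mmp8 and Mmp27 held none in this window. A match is a run of letters and not a measured binding site. None of the 7 AP-1 subunit genes on a fixed list passed the threshold in any comparison. These are RNA levels only, and the part of AP-1 in the member results was not tested.

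Mmp3, a stromelysin that cleaves proteoglycans and activates other pro-MMPs, rose in the combination against each of the other groups. It was at 1.79, 1.37, 2.49 and 1.78 CPM in the control group, 0.678, 0.677, 0.818 and 1.51 in the SB525334 group, 1.76, 1.60, 1.01 and 1.66 in the KN046 group and 4.67, 4.36, 6.66 and 13.0 in the combination group. Each combination mouse was above each of the other 12 mice, and combination mouse 4 was the highest. The combination exceeded control (log2 difference 1.95 ± 0.36, 3.86-fold higher, adjusted p = 0.000770), KN046 (log2 difference 2.24 ± 0.37, 4.74-fold higher, adjusted p = 0.000231) and SB525334 (log2 difference 2.96 ± 0.38, 7.76-fold higher, adjusted p = 8.33e-05). Neither agent alone passed, with -1.01 ± 0.38 (adjusted p = 0.130) for SB525334 and -0.30 ± 0.37 (adjusted p = 0.670) for KN046. The interaction was 3.25 ± 0.53 (adjusted p = 0.00136) and passed in 16 of 16 fits that left out 1 mouse. Without combination mouse 4 the difference to control was 1.5 (adjusted p = 0.00399) and the interaction 2.80 (adjusted p = 0.00259).

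Mmp10, the other stromelysin of the cluster, was low, at 0.700, 0.473, 0.507 and 0.157 CPM in the control group, 0.271, 0.0796, 0.258 and 0.517 in the SB525334 group, 0.586, 0.243, 0.224 and 0.312 in the KN046 group and 0.719, 1.27, 0.710 and 2.50 in the combination group. All combination mice lay above all KN046 and SB525334 mice, and combination mouse 4 was highest. The combination exceeded KN046 (log2 difference 1.92 ± 0.56, 3.78-fold higher, adjusted p = 0.0202) and SB525334 (log2 difference 2.2 ± 0.56, 4.59-fold higher, adjusted p = 0.0333), but its difference to control was 1.48 ± 0.54 (adjusted p = 0.0964). Without combination mouse 4 the first 2 became 1.39 (adjusted p = 0.0950) and 1.66 (adjusted p = 0.208). The first was also lost without KN046 mouse 3 (adjusted p = 0.0540), and the second without SB525334 mouse 1, 2 or 3 or combination mouse 2, with the largest adjusted p at 0.208 over all mice left out, and with only those 2 groups in the fit (adjusted p = 0.0896).

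Mmp12, the macrophage metalloelastase, was the most abundant gene of the cluster per kilobase, at 144, 133, 68.0 and 64.4 CPM in the control group, 49.6, 40.4, 73.1 and 106 in the SB525334 group, 39.8, 66.5, 70.6 and 70.4 in the KN046 group and 87.3, 128, 67.1 and 231 in the combination group. Control mice 1 and 2 were at about the level of combination mouse 2, and the combination mice overlapped with every other group. The combination exceeded KN046 (log2 difference 1.06 ± 0.37, 2.08-fold higher, adjusted p = 0.0481). This was lost without combination mouse 4 (0.62, adjusted p = 0.216), without combination mouse 2 or any 1 KN046 mouse, and under DESeq2 (adjusted p = 0.0553). With a mean CPM of at least 1, only those 2 groups in the fit or the control pairs summed the adjusted p was 0.0518, 0.0576 and 0.0542. Macrophage markers were at 815 to 1722 CPM in KN046 and 1669 to 2414 in the combination, and their part was not tested.

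Mmp7, the matrilysin made by epithelial cells, had 96 counts in the control mice, 19 with SB525334, 94 under KN046 and 0 with the combination. Its levels were 1.79, 2.04, 0.456 and 0.157 CPM in the control group, 0.136, 0.0796, 0.0861 and 0.517 in the SB525334 group and 1.60, 1.85, 0.503 and 0.883 in the KN046 group. The absence of counts allows up to 3 per library, so by group means Mmp7 was at least 7.11-fold lower in the combination than in control (adjusted p = 0.00173) and at least 7.74-fold lower than in KN046 (adjusted p = 0.00141). Control mice 1 to 4 had 41, 43, 9 and 3 counts. The bound against control thus rests mainly on mice 1 and 2, and control mouse 4 lay at the floor itself. SB525334 alone did not pass (-2.43 ± 0.79, adjusted p = 0.0757), nor did the combination against SB525334 (adjusted p = 0.212), for which the bound was at least 1.31-fold lower. The summed epithelial markers were at 6.87% of the control median in the combination, and their part in the Mmp7 result was not tested.

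The interaction also passed for both collagenase genes tested in the cluster, Mmp8 and Mmp13. Mmp8, the neutrophil collagenase, was at 7.13, 7.53, 6.64 and 6.17 CPM in the control group, 1.18, 1.19, 2.37 and 2.2 in the SB525334 group, 1.33, 1.65, 3.07 and 2.65 in the KN046 group and 1.49, 3.03, 1.26 and 5.89 in the combination group. All mice given 1 agent lay below all control mice. SB525334 lowered Mmp8 (log2 difference -1.98 ± 0.42, 3.95-fold lower, adjusted p = 0.00310) and KN046 did so too (log2 difference -1.66 ± 0.42, 3.15-fold lower, adjusted p = 0.0393). The KN046 call was lost with the control pairs summed (adjusted p = 0.234) and without any 1 of the control mice or KN046 mouse 1, 3 or 4 (up to 0.130). In the combination the difference to control was -1.23 ± 0.41 (adjusted p = 0.0656), and -1.82 (adjusted p = 0.00283) without combination mouse 4. The interaction of 2.41 ± 0.59 (adjusted p = 0.0255) was likewise 1.81 (adjusted p = 0.0725) without that mouse, whose neutrophil markers were the highest of the 16, and it was lost without control mouse 2 or SB525334 mouse 1 or 2 (largest adjusted p = 0.0725 over all mice left out) and with the control pairs summed (adjusted p = 0.0929). Neutrophil marker sums were likewise highest in the 4 control mice and combination mouse 4, and their part was not tested.

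Mmp13, the main interstitial collagenase of the mouse, was at 33.5, 25.6, 12.5 and 12.5 CPM in the control group, 9.72, 3.54, 10.8 and 10.9 in the SB525334 group, 4.96, 12.3, 8.10 and 13.1 in the KN046 group and 16, 16.2, 12.8 and 25.6 in the combination group. Every SB525334 mouse was below every control mouse, and the combination mice lay within the range of control. The SB525334 difference (log2 difference -1.27 ± 0.39, 2.41-fold lower, adjusted p = 0.0457) passed narrowly. It was lost with upper-quartile scaling (adjusted p = 0.0529), with a mean CPM of at least 1 (adjusted p = 0.0530), with only those 2 groups in the fit (adjusted p = 0.0689), with the control pairs summed (adjusted p = 0.121) and without control mouse 1 or 2 or any 1 SB525334 mouse (up to 0.215). KN046 differed from control by -1.13 ± 0.39 (adjusted p = 0.0962) and the combination by -0.25 ± 0.38 (adjusted p = 0.742). The interaction was 2.15 ± 0.55 (adjusted p = 0.0319). It was lost with the control pairs summed (adjusted p = 0.0710) and without control mouse 1 or 2, SB525334 mouse 1 or 2, KN046 mouse 1 or 3 or combination mouse 4 (largest adjusted p = 0.0897).

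Mmp27, a little-studied member next to Mmp8, was at 2.93, 3.03, 0.862 and 0.836 CPM in the control group, 0.136, 0.279, 0.344 and 0.474 in the SB525334 group, 0.640, 1.36, 0.559 and 0.572 in the KN046 group and 0.205, 0.0552, 0.273 and 0.896 in the combination group. SB525334 lowered it (log2 difference -2.62 ± 0.63, 6.13-fold lower, adjusted p = 0.00921), with every SB525334 mouse below every control mouse and 8 of 8 fits without 1 mouse passing. The combination lowered it as well (log2 difference -2.38 ± 0.63, 5.19-fold lower, adjusted p = 0.0167), although combination mouse 4 overlapped with control. That call was lost with the control pairs summed (adjusted p = 0.0501), with only those 2 groups in the fit (adjusted p = 0.0541) and without control mouse 1 or 2 or combination mouse 2 or 3 (up to 0.0671), and it was -3.38 (adjusted p = 0.00221) without combination mouse 4. In the combination group mouse 4 had the highest level of all 6 tested cluster genes with counts there, against 15 of 47 tested members in all.

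**Figure D4:**
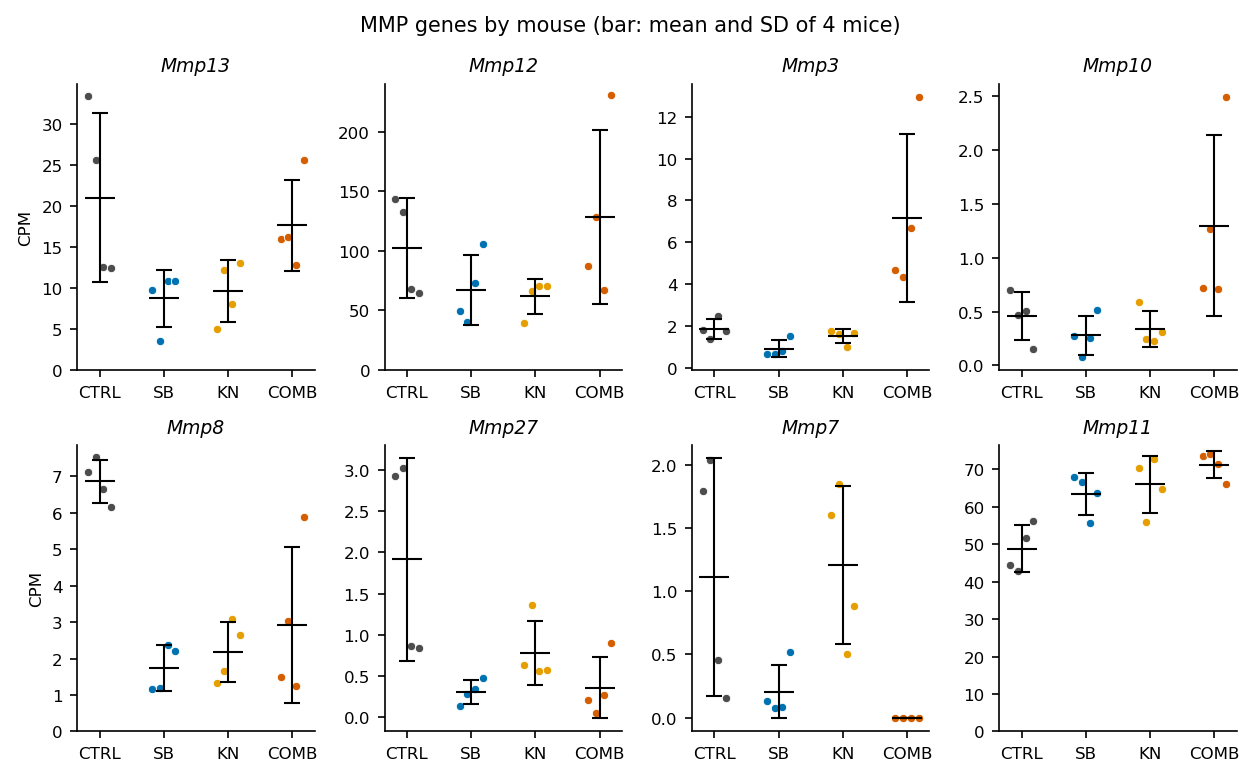
CPM (y axis, from 0) of the 7 tested genes of the chromosome 9 cluster and of Mmp11 in each mouse (points) by group (CTRL, control; SB, SB525334; KN, KN046; COMB, combination), with the mean and SD of 4 mice. The combination mice stood above the other groups for Mmp3 (4.36 to 13.0 CPM) and had 0 counts of Mmp7, and control mice 1 and 2 were above mice 3 and 4 for Mmp13, Mmp12, Mmp27 and Mmp7.

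Mmp11, a stromelysin first found in the fibroblasts around carcinomas and encoded outside the cluster at chr10:75759055-75772330, rose in all 3 treated groups. It was at 44.5, 42.9, 51.6 and 56.3 CPM in the control group, 68.1, 66.6, 55.6 and 63.7 in the SB525334 group, 70.4, 55.9, 72.9 and 64.6 in the KN046 group and 73.4, 74.2, 71.3 and 66.2 in the combination group, and every combination mouse was above every control mouse. The combination exceeded control by the most (log2 difference 0.55 ± 0.11, 1.46-fold higher, adjusted p = 0.00140), and this passed in every fit that left out 1 mouse. SB525334 (log2 difference 0.38 ± 0.11, 1.30-fold higher, adjusted p = 0.0301) and KN046 (log2 difference 0.43 ± 0.11, 1.35-fold higher, adjusted p = 0.0382) overlapped with control mouse 4. Those calls were lost with the control pairs summed (adjusted p = 0.137 and 0.234), without control mouse 1 or 2, without SB525334 mouse 1, 2 or 4 for the first (up to 0.116) and without control mouse 3 or 4 or KN046 mouse 1 or 3 for the second (up to 0.105). The KN046 call was also lost with only those 2 groups in the fit (adjusted p = 0.130). Mmp11 overlaps Chchd10 on the opposite strand. Fibroblast marker sums overlapped between the groups, at 7663 to 8364 CPM in control and 6362 to 11734 in the combination. Single markers ranged from a log2 difference of -2.34 to 1.01 between these groups, and their part was not tested.

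Mmp23, a membrane-bound MMP that lacks the usual hemopexin domain, was at 4.72, 5.77, 5.58 and 6.06 CPM in the control group, 4.43, 3.86, 2.93 and 3.62 in the SB525334 group, 1.81, 3.79, 3.19 and 4.57 in the KN046 group and 2.93, 1.21, 1.75 and 2.69 in the combination group. All combination mice lay below all control mice (log2 difference -1.36 ± 0.30, 2.57-fold lower, adjusted p = 0.00350), and the call held in every fit without 1 mouse. SB525334 and KN046 alone differed from control by -0.58 ± 0.29 (adjusted p = 0.294) and -0.73 ± 0.29 (adjusted p = 0.151).

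Of the ADAM genes that encode active proteases in somatic tissue, the 2 main sheddases kept to a narrow range. Adam10, which cleaves Notch receptors and cadherins, was at 135, 131, 130.0 and 125 CPM in the control group, 134, 119, 124 and 136 in the SB525334 group, 148, 127, 129.6 and 127 in the KN046 group and 129, 126, 157 and 138 in the combination group, and its differences to control lay between -0.02 and 0.08, each with an SE of 0.09. Adam17, the converting enzyme of TNF-α and of EGF receptor ligands, was at 101, 109, 92.4 and 89.1 CPM in the control group, 102, 96.6, 98.6 and 106 in the SB525334 group, 77.6, 84.9, 88.5 and 77.1 in the KN046 group and 106, 89.2, 112 and 103 in the combination group. All combination mice were above all KN046 mice (log2 difference 0.32 ± 0.09, 1.25-fold higher, adjusted p = 0.0177), which was lost without combination mouse 3 (adjusted p = 0.0590) and when only those 2 groups entered the fit (adjusted p = 0.0823). Against control, Adam17 differed by -0.26 ± 0.09 (adjusted p = 0.112) with KN046 and 0.07 ± 0.09 (adjusted p = 0.714) with the combination. It overlaps Iah1 on the opposite strand.

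Adam9, a sheddase of broad expression, was at 156, 156, 143 and 135 CPM in the control group, 129, 113, 171 and 151 in the SB525334 group, 244, 163, 218 and 149 in the KN046 group and 152, 138, 147 and 144 in the combination group. KN046 mice 1 and 3 were the highest, and the combination was lower than KN046 (log2 difference -0.41 ± 0.15, 1.33-fold lower, adjusted p = 0.0482). This call lay at the threshold. It was lost with upper-quartile scaling (adjusted p = 0.0519), no filter (0.0542), a mean CPM of at least 1 (0.0507), only those 2 groups in the fit (0.0902) and the control pairs summed (0.0680), and without KN046 mouse 1 or 3 or any 1 combination mouse (up to 0.198). KN046 differed from control by 0.39 ± 0.15 (adjusted p = 0.126), or by 0.47 (adjusted p = 0.0462) without KN046 mouse 2. Adam12, a gene of fibroblasts and muscle that TGF-β is known to induce, was at 7.44, 6.53, 4.01 and 4.34 CPM in the control group, 2.03, 2.87, 3.18 and 4.01 in the SB525334 group, 1.81, 2.97, 7.38 and 4.16 in the KN046 group and 1.39, 0.938, 1.80 and 2.26 in the combination group. Every combination mouse was below every control mouse (log2 difference -1.80 ± 0.39, 3.48-fold lower, adjusted p = 0.00336), in 8 of 8 fits without 1 mouse. The combination was also lower than KN046 (log2 difference -1.34 ± 0.39, 2.53-fold lower, adjusted p = 0.0201), and this was lost without KN046 mouse 3 (adjusted p = 0.0922, where the difference was -0.88), without combination mouse 2 (adjusted p = 0.0691) and with only those 2 groups in the fit (adjusted p = 0.0653). SB525334 alone differed from control by -0.88 ± 0.37 (adjusted p = 0.190). Adam33 was at 0.373, 2.92, 0.615 and 0.623 CPM in KN046 and 0.411, 0.276, 0.109 and 0.566 in the combination. Its lower level in the combination (log2 difference -1.71 ± 0.59, 3.27-fold lower, adjusted p = 0.0437) rested on KN046 mouse 2, without which the difference was -0.64 (adjusted p = 0.323), and it was also lost without combination mouse 1, 2 or 3. With no filter, only those 2 groups in the fit or the control pairs summed the adjusted p was 0.0514, 0.120 and 0.0632.

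Adam11, Adam22 and Adam23 lack protease activity and are best known as neural receptors for LGI proteins. Adam23 and Adam11 had the largest falls of the tested ADAM genes in the combination against control. Adam23 was at 13.1, 10.8, 3.91 and 3.19 CPM in the control group, 1.40, 1.79, 2.62 and 1.81 in the SB525334 group, 8.15, 7.73, 8.27 and 5.20 in the KN046 group and 0.411, 0.221, 0.655 and 0.990 in the combination group. The SB525334 and combination mice lay below every control and KN046 mouse, and the combination mice were the lowest. SB525334 lowered Adam23 against control (log2 difference -2.02 ± 0.43, 4.06-fold lower, adjusted p = 0.00297), the combination lowered it against control (log2 difference -3.74 ± 0.48, 13.3-fold lower, adjusted p = 1.34e-05) and against KN046 (log2 difference -3.66 ± 0.48, 12.6-fold lower, adjusted p = 1.89e-05), and KN046 alone gave -0.08 ± 0.40 (adjusted p = 0.924). These 3 calls passed in all fits that left out 1 mouse and with the control pairs summed. The combination against SB525334 did not pass (-1.72 ± 0.49, adjusted p = 0.0646). Adam11 was at 4.42, 4.64, 1.83 and 2.61 CPM in the control group, 0.768, 2.27, 0.732 and 1.08 in the SB525334 group, 3.04, 4.04, 2.07 and 2.23 in the KN046 group and 1.54, 0.552, 0.491 and 0.707 in the combination group. The combination mice were all below the control and KN046 mice in level, with a log2 difference -2.03 ± 0.46, 4.07-fold lower, adjusted p = 0.00448, against control and a log2 difference -1.78 ± 0.46, 3.43-fold lower, adjusted p = 0.00982, against KN046. SB525334 overlapped with control in mouse 2 (log2 difference -1.47 ± 0.44, 2.77-fold lower, adjusted p = 0.0387), and that call was lost with the control pairs summed (adjusted p = 0.126) and without control mouse 1 or 2 or SB525334 mouse 1, 3 or 4 (up to 0.134). Adam22, the third of this group, did not pass (-1.0 ± 0.60, adjusted p = 0.354 for the combination against control). The hepatocyte and epithelial marker sums fell in the same 2 groups, and their part was not tested.

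**Figure D5:**
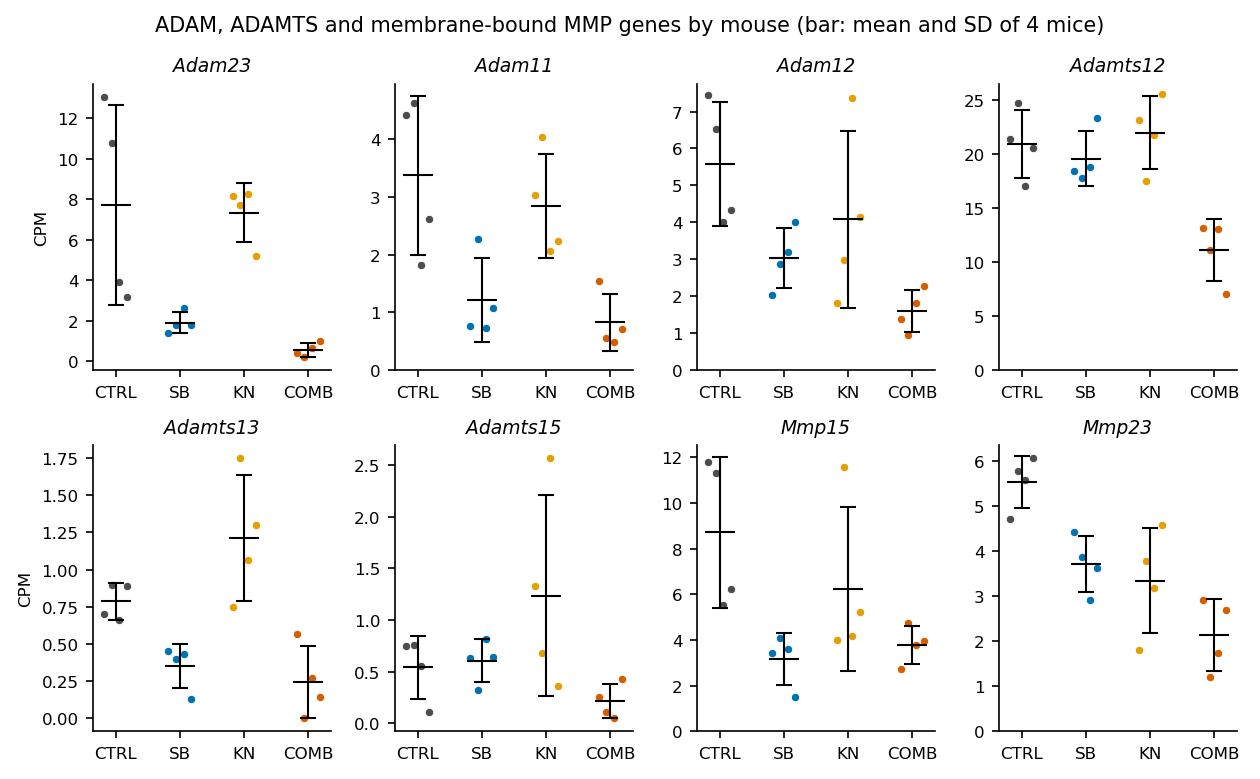
CPM (y axis, from 0) of Adam23, Adam11, Adam12, Adamts12, Adamts13, Adamts15, Mmp15 and Mmp23 in each mouse (points) by group (CTRL, control; SB, SB525334; KN, KN046; COMB, combination), with the mean and SD of 4 mice. The combination mice were the lowest for Adam23 (0.221 to 0.990 CPM) and for Adamts12 (6.98 to 13.1 CPM), and control mice 1 and 2 stood above mice 3 and 4 for Adam23, Adam11, Adam12 and Mmp15.

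In the ADAMTS family, Adamts12 was the one gene that separated the combination from all other groups. This enzyme cleaves cartilage oligomeric matrix protein and was at 21.3, 24.7, 17.0 and 20.5 CPM in the control group, 18.4, 17.7, 18.8 and 23.3 in the SB525334 group, 23.1, 17.5, 21.7 and 25.6 in the KN046 group and 13.1, 11.1, 13.0 and 6.98 in the combination group. All combination mice lay below the other 12 mice. The combination was lower than control (log2 difference -0.92 ± 0.19, 1.89-fold lower, adjusted p = 0.00182), KN046 (log2 difference -0.99 ± 0.19, 1.98-fold lower, adjusted p = 0.000903) and SB525334 (log2 difference -0.82 ± 0.19, 1.77-fold lower, adjusted p = 0.0137), while SB525334 and KN046 differed from control by -0.10 ± 0.18 (adjusted p = 0.850) and 0.07 ± 0.18 (adjusted p = 0.850). Only the comparison with SB525334 was lost without 1 mouse, SB525334 mouse 4 (adjusted p = 0.0519). The interaction was not called (-0.89 ± 0.26, adjusted p = 0.0652).

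Adamts13, which cleaves von Willebrand factor and is made in the liver mainly by stellate cells, was at 0.700, 0.899, 0.659 and 0.888 CPM in the control group, 0.452, 0.398, 0.430 and 0.129 in the SB525334 group, 0.746, 1.75, 1.06 and 1.30 in the KN046 group and 0.565, 0, 0.273 and 0.141 in the combination group. The combination mice were below the KN046 mice (log2 difference -2.28 ± 0.58, 4.86-fold lower, adjusted p = 0.00914), and the difference to control was -1.65 ± 0.59 (adjusted p = 0.0894), which passed without combination mouse 1 (adjusted p = 0.0159) and under DESeq2 (adjusted p = 0.0486). Stellate cell markers summed to 75.2 to 120.4 CPM in KN046 and 30.7 to 46.9 in the combination. Of the 7 markers, 5 were lower in the combination than in KN046 and 2 did not pass, where 14.5% of all genes were lower. Their log2 differences ran from -7.36 to 0.29 with a median of -5.48, so the sums understate the fall of most of them. Their part in the Adamts13 result was not tested. The gene of its substrate, Vwf, was at 12.1 to 19.1 CPM and 0.655 to 2.50 CPM in the same groups. Adamts15, a proteoglycan-cleaving enzyme, was at 1.33, 0.681, 2.57 and 0.364 CPM in KN046 and 0.257, 0.110, 0.0546 and 0.424 in the combination (log2 difference -2.47 ± 0.68, 5.55-fold lower, adjusted p = 0.0149), and KN046 mouse 4 overlapped. Without KN046 mouse 3 this was -1.83 (adjusted p = 0.0645). Adamts14, which removes the amino-terminal propeptide of collagen, was at 64.0, 55.8, 71.6 and 44.2 CPM in KN046 and 48.6, 35.0, 45.4 and 33.8 in the combination (log2 difference -0.53 ± 0.16, 1.45-fold lower, adjusted p = 0.0206), and that call was lost without KN046 mouse 1 or 3 or combination mouse 2 or 4 (up to 0.0767) and with only those 2 groups in the fit (adjusted p = 0.0581). Adamts1, the most abundant ADAMTS gene per kilobase, was at 107, 108, 72.6 and 75.0 CPM in the control group, 76.5, 73.0, 81.0 and 68.4 in the SB525334 group, 115, 83.4, 93.1 and 116 in the KN046 group and 138, 94.1, 98.7 and 93.8 in the combination group and did not pass in any comparison.

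The 19 tested members not named by the rule passed in none of the comparisons by edgeR. Against control their log2 differences ran from -1.23 (Adam4) to 1.02 (Adamts8) with SB525334, from -1.55 (Mmp25) to 1.58 (Adam5) with KN046 and from -1.0 (Adam22) to 1.51 (Adam5) with the combination, and the lowest adjusted p of any was 0.0717, for Adam15 in the combination against KN046. These 6 genes were picked for their values. Mmp24os1, among the 10 most abundant members, was at 25.8, 29.1, 33.6 and 36.6 CPM in the control group, 37.4, 35.2, 34.9 and 36.1 in the SB525334 group, 36.0, 28.9, 38.0 and 34.2 in the KN046 group and 31.1, 42.8, 36.4 and 32.7 in the combination group and also did not pass, with 0.19 ± 0.13 (adjusted p = 0.404) for the combination against control. It lies opposite Mmp24, and their reads cannot be told apart if strand was ignored in counting.

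Genes that act with the members were counted on fixed lists. Of all genes, 9.22% were lower and 0.394% higher with SB525334, and 2.4% and 1.6% with KN046. The shares were 9.74% and 1.37% for the combination against control, and 14.5% and 9.89% against KN046. These shares stand beside the counts of every list. Among 8 proprotein convertases and plasminogen activators, which turn MMP precursors into active enzymes, 3 were lower with SB525334 and with the combination against control, and 0 were higher. In the combination against KN046 3 were lower and 1 higher. Those lower against control were Plg, the plasminogen made by hepatocytes (242 to 291 CPM in control, 4.26 to 25.7 CPM with SB525334 and 0.0513 to 0.276 CPM with the combination), and the convertases Pcsk5 and Pcsk6. Pcsk6 differed by -3.20 ± 0.36 (adjusted p = 5.20e-06) and -3.99 ± 0.39 (adjusted p = 3.50e-07). Furin, the main activator of membrane-type MMPs and ADAMs, did not pass, with -0.09 ± 0.09 (adjusted p = 0.631) for the combination. Plau, the urokinase activator, was at 8.21 to 19.1 CPM in KN046 and 31.2 to 43.3 CPM in the combination (1.24 ± 0.21, adjusted p = 0.000365), and its interaction was 1.24 ± 0.30 (adjusted p = 0.0231).

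Of 7 protease inhibitors outside the TIMP family, 3 were lower with SB525334, 1 under KN046 and 3 with the combination against control. The shares of all genes lower were 9.22%, 2.4% and 9.74%. Pzp and Mug1, liver-made inhibitors of the α2-macroglobulin family, were at 582 to 601 CPM and 513 to 718 CPM in control and at 0.613 to 0.976 CPM and 0.236 to 0.382 CPM in the combination. Tfpi2, an inhibitor of plasmin and of several MMPs, fell with SB525334 (-1.28 ± 0.20, adjusted p = 0.000197), KN046 (-0.90 ± 0.20, adjusted p = 0.0274) and the combination (-1.63 ± 0.21, adjusted p = 1.16e-05). Reck, a membrane-anchored inhibitor of MMPs, did not pass (0.08 ± 0.22, adjusted p = 0.870 for the combination against control). Hepatocyte marker sums moved with Plg, Pzp and Mug1, and their part was not tested.

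Among 8 tested partners that carry ADAM10 or ADAM17 to the cell surface, 2 were higher in the combination than in control, the tetraspanins Tspan15 (0.48 ± 0.15, adjusted p = 0.0464) and Tspan17 (0.43 ± 0.12, adjusted p = 0.0263), and none passed for SB525334 or KN046. Of all genes, 1.37% were higher in the combination than in control. Tspan14 (0.28 ± 0.09, adjusted p = 0.0285) and the iRhom gene Rhbdf2 (0.34 ± 0.12, adjusted p = 0.0447) were higher in the combination than in KN046, where 9.89% of all genes were higher. Of 13 tested ligands and receptors that these enzymes release, 2 were lower with the combination against control, where 9.74% of all genes were lower. They were Ereg (-2.2 ± 0.44, adjusted p = 0.00157) and Cdh1 (-1.11 ± 0.28, adjusted p = 0.0101). With KN046, Egf was higher (1.68 ± 0.32, adjusted p = 0.0177) and Cxcl16 lower (-0.80 ± 0.18, adjusted p = 0.0268), where 1.6% of all genes were higher and 2.4% lower. Tnf had an interaction of 2.31 ± 0.64 (adjusted p = 0.0491).

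Of 12 tested matrix substrates, 1 was lower with SB525334, 0 under KN046 and 4 with the combination against control, and none was higher. Of all genes, 9.22%, 2.4% and 9.74% were lower. Vwf (-2.81 ± 0.37, adjusted p = 1.79e-05), Lum (-2.34 ± 0.44, adjusted p = 0.000739), Eln (-0.74 ± 0.18, adjusted p = 0.00816) and Col1a2 (-0.57 ± 0.14, adjusted p = 0.0119) made up the 4. Against KN046, the combination was higher for Col3a1 (0.62 ± 0.20, adjusted p = 0.0337) and lower for 3, Vwf, Lum and Vcan. Of all genes, 9.89% were higher and 14.5% lower in that comparison. Of 11 tested relatives of the members, 3 were lower in the combination than in control, Adamtsl1 (-2.56 ± 0.39, adjusted p = 9.37e-05), Adamtsl2, which binds the latent TGF-β complex (-1.66 ± 0.26, adjusted p = 9.91e-05), and Adamdec1 (-2.09 ± 0.63, adjusted p = 0.0386), and 0 were higher. The shares of all genes were 9.74% lower and 1.37% higher. Pappa, which cleaves IGF-binding proteins, was lower in the combination than in KN046 (-1.53 ± 0.52, adjusted p = 0.0418). Furin, Reck, Cdh1, Cxcl16, Col1a2, Col3a1 and Vcan were named after their values were seen.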

How the data were processed

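RNA from liver metastases of 16 mice, 4 in each group, was sequenced as mRNA libraries on an Illumina HiSeq instrument. Per the labels and the study's methods, the authors trimmed reads (cutadapt 2.7), aligned them to GRCm39 (HISAT2 2.2.1) and counted reads per gene (HTSeq 2.0.4). The authors also used DESeq2 1.38.3 on these data. The unit analysed was the raw count per gene as deposited by the authors, 1 table per mouse. The counting options for strand and for reads with several matches are not given in the sources used here. Deposited normalized tables were not used, and 0 columns belonged to other samples.

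Symbols came from GENCODE M39 for 21770 gene IDs. In R 4.3.3, genes were kept by filterByExpr with a minimum count of 10, scaled by TMM and fitted over all 16 mice by group with edgeR 4.0.16 quasi-likelihood, giving 13968 genes and a biological coefficient of variation of 20.1%. The 6 contrasts were adjusted by Benjamini-Hochberg over all genes, with a threshold of 0.05. CPM values use TMM-scaled library sizes, and CPM per kb divides by the summed exon length. Every difference is on the log2 scale with its standard error. Total counts ran from 18368994 to 23877131. The floor of a gene with 0 counts was set at 3 counts per library and turned into CPM by the scaled library sizes. Intervals and floors cover counting error only.

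Alternatives were DESeq2 1.42.0, RLE and upper-quartile scaling, no filter, a mean CPM of at least 1, only the mice of the groups compared, a replicate block, summed control pairs, the study's threshold (unadjusted p under 0.05 and a fold above 2) and each mouse left out. The look at combination mouse 4 was added after seeing the data. The code was tested on simulated data. The members named were the TIMPs, every member past the threshold in a contrast, the 10 highest per kilobase, and Mmp2, Mmp9, Mmp14, Adam10, Adam17 and Adamts13, with up to 4 genes of each pathway list. The members, lists and rules were chosen with earlier results of these data known. Some genes of the pathway lists are not reported here.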

Additional observations from a re-analysis of the deposited data

Results flagged for a closer look

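In 12 of 116 groups of 4 mice looked at, 1 mouse lay far from the other 3. Its gap to the next mouse was 0.830 to 0.902 of the range of the 4. Chance was put at about 5.8 groups, which holds only for independent groups with normally distributed values. Neither was checked, and the same mouse can stand apart for several genes. The highest mouse stood apart in KN046 for Adam10 (148 CPM), Adam33 (2.92 CPM), Mmp15 (11.6 CPM), Mmp27 (1.36 CPM) and Timp4 (0.391 CPM), in the combination for Adamts1 (137.5 CPM) and Mmp2 (1122 CPM), and in SB525334 for Mmp3 (1.51 CPM) and Mmp7 (0.517 CPM). The lowest mouse stood apart in SB525334 for Adamts13 (0.129 CPM) and Mmp13 (3.54 CPM) and in KN046 for Mmp12 (39.8 CPM). KN046 mouse 2 was the one that stood apart for Adam33, Mmp15 and Mmp27.

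The interaction in edgeR's quasi-likelihood test passed for 3 of the 48 tested members, where 4.28% of all genes passed. The calls for Mmp8 and Mmp13 were lost with the control pairs summed (adjusted p = 0.0929 and 0.0710). They were also lost without combination mouse 4 (adjusted p = 0.0725 and 0.0897) and without some other mice. The interaction was 3.25 for Mmp3 (adjusted p = 0.00136), 2.41 for Mmp8 (adjusted p = 0.0255) and 2.15 for Mmp13 (adjusted p = 0.0319) on the log2 scale. SB525334 went with a difference of -1.01 ± 0.38 (adjusted p = 0.130) for Mmp3 without KN046 and 2.24 ± 0.37 (adjusted p = 0.000231) in its presence. For Mmp8 these were -1.98 ± 0.42 (adjusted p = 0.00310) and 0.43 ± 0.42 (adjusted p = 0.471), and for Mmp13 -1.27 ± 0.39 (adjusted p = 0.0457) and 0.88 ± 0.39 (adjusted p = 0.102).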

How the results depend on the processing

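Of 75 values of named members, the call was the same for 75 with RLE scaling, 73 with no filter, 72 with DESeq2 and with upper-quartile scaling, 70 with the replicate block and 62 with the control pairs summed, where 13 were lost. With a mean CPM of at least 1 it was the same for 59 and lost for 4, with only the mice compared the same for 59 and lost for 10, and with the study's threshold the same for 65 and lost for 9. With that CPM filter and with only the mice compared, the remaining values had no test. Of 624 values without 1 mouse, 518 kept their direction and call, 85 lost the call, 4 gained one and 17 changed sign. The causes were not tested.

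The 7 members called for SB525334 against control became 3 with the control pairs summed and 3 to 8 without 1 mouse, lowest without control mouse 1. The 2 called for KN046 became 1 with only the mice compared and 0 with the control pairs summed by edgeR. In that last fit 8 had an unadjusted p under 0.05, and the share of all genes past it was not counted. DESeq2 called 5 and the study's threshold 5 (all genes 4.08%), and 0 to 7 were called without 1 mouse, highest without KN046 mouse 2. The 14 called in the combination against KN046 became 7 with a mean CPM of at least 1, 6 with only the mice compared and 8 to 14 without 1 mouse. In the first of these settings Mmp7, Mmp10, Adam33, Adamts13 and Adamts15 were under the filter and not tested. Adam9 and Mmp12 lost the call there. The 3 called against SB525334 became 5 with DESeq2 and 5 with the study's threshold (all genes 5.88%). The 3 interactions became 1 with the control pairs summed, 5 with DESeq2, 8 with the study's threshold (all genes 8.0%) and 1 to 4 without 1 mouse. For the combination against control no alternative moved the count of 10 by over 1.5 times. Shares of all genes called were counted only for the main fit and the study's threshold. Counts under the other settings are therefore not a result about the members.

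Differences to control that changed sign without 1 mouse, none of them called, ran for SB525334 from -0.0496 to 0.0219 (Adam10), -0.165 to 0.0380 (Adam9), -0.202 to 0.00576 (Timp1) and -0.33 to 0.13 (Timp3), for KN046 from -0.0260 to 0.0599 (Adam10), -0.573 to 0.00777 (Mmp9) and -0.0555 to 0.248 (Timp3), and for the combination from -0.0542 to 0.0105 (Adam9), -0.106 to 0.191 (Timp1) and -0.222 to 0.0332 (Timp3).

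Replicate numbers did not pair the mice: over 24 same-numbered pairs the correlation of deviations ran from -0.370 to 0.407. With the replicate block the counts called were 6, 2, 11, 12, 2 and 2 for SB525334, KN046 and the combination against control, the combination against KN046 and SB525334, and the interaction, and the calls lost were Adam33 and Mmp12 (combination against KN046), Mmp10 (combination against SB525334) and Mmp13 (SB525334 against control and interaction). The share of all genes called with the replicate block was not counted. In all, 33 members were under the filter, 12 of them with 0 counts, and 8 tested members had a mean under 1 CPM.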
